A study of Mus musculus with 5 samples.

Results

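Spib encodes Spi-B, a transcription factor of the Ets family, and it is described here beside Spi1, Ets1, Ets2, Elf1, Elk3, Fli1 and Erg, which belong to the same family. The members were found by gene symbol, taking every probe set whose annotation names one of these 8 genes and no other gene. All 8 had at least 1 probe set, and together they held 19 of the 34958 probe sets with a single symbol, which stand for 18194 genes. Spib was chosen by its measured levels in these same arrays, high in TNF-LTBR and low in control cultures, so its values are a description and carry no test. The other 7 members were taken as its family.

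The arrays measured RNA from cultured aortic endothelial cells, which line the vessel wall, of mice on the C57BL/6J background. By their titles, 2 arrays were TNF-LTBR cultures at 24 h and 3 were control cultures at 24 h. TNF is an inflammatory cytokine and LTBR is the lymphotoxin beta receptor. The sources used here do not name the agonists or doses behind the TNF-LTBR title, and the treatment text, which names PBS, is the same for all 5 samples. The series title speaks of aortic smooth muscle cells, while every sample is labelled as endothelial. The labels leave unsaid whether the arrays within each group represent independent cultures, so p-values measure only how these arrays spread, which may be technical.

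Ets family factors share a DNA-binding domain that recognises sites with the core GGAA, and members differ in the cells that make them and in their partners on DNA. Erg and Fli1 maintain endothelial identity, Ets1 and Ets2 respond to ERK signalling, and Elk3 acts together with serum response factor. Spi-B and its relative PU.1, the product of Spi1, are best known from blood cells. Spi-B is also made in microfold (M) cells of the gut and in thymic medullary epithelium of the mouse, where ligands of the TNF superfamily induce it through the non-canonical NF-kB pathway, whose subunits are encoded by Relb and Nfkb2.

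The Spib promoter is shown because Spib carried the difference on which the choice rests and because the study concerns NF-kB signalling. It was read from RefSeq in build GRCm38.p6 at chr7:44532022-44532321 on the minus strand and runs from 250 bases before the transcription start to 50 bases after it. Capitals mark matches to the kappa B consensus, the site that NF-kB binds, written as 3 guanines, a purine, any 2 bases, 2 pyrimidines and 2 cytosines on either strand.
Spib promoter: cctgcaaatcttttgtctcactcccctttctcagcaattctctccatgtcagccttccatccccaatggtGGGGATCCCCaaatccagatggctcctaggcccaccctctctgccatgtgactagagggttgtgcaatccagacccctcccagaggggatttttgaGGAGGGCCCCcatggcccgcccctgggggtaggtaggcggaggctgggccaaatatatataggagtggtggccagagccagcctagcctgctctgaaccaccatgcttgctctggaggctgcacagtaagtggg
The window held 2 matches, from 180 to 171 and from 84 to 75 bases before the start. The first, GGGGATCCCC, reads the same on both strands, and the other, GGAGGGCCCC, matches on the opposite strand. Over all 32851 promoter windows of this length, 8.46% held at least 1 kappa B match. Of the 8 windows available for 5 members (Spib, Elk3, Elf1, Erg and Ets2), that of Elk3 also held a match. The Spib window held 1 match to the Ets core GGAA, present in 96.0% of all windows, and it overlapped neither kappa B match. The longer PU box GAGGAA, which contains that core and is bound by PU.1 and Spi-B, was present in 28.3% of all windows and in none of the 8 member windows. A match is a run of letters and not a measured binding site.

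The cells labelled endothelial had some endothelial markers at moderate and others at low intensity. Of 12 listed, 5 were among the brightest 60% of genes, the limit used for testing, and those below it include Pecam1, Cdh5 and, chosen after their values were seen, Vwf and Tie1. Those above it were Kdr, Emcn, Esam, Plvap and Egfl7. Vwf, the von Willebrand factor gene, read between 2.3 and 7.2 over the 5 arrays, and Kdr, a receptor of vascular endothelial growth factor, between 255.1 and 364.2. All 10 markers of fibroblasts and pericytes passed the limit, as did 7 of 10 smooth muscle markers, with summed intensities of 13727 and 11518 for the smooth muscle list on TNF-LTBR arrays, against 24394, 20136 and 11955 on control arrays. The summed intensity of the endothelial list was 2149 and 1671 on TNF-LTBR arrays, against 2368, 2449 and 1327 on control arrays. TNF-LTBR array 2 and control array 3 had the lowest sums of both lists. Over the 10916 tested genes, deviations from the group mean correlated at 0.81 between these arrays and at 0.80 between TNF-LTBR array 1 and control array 2. These values are across genes, which are not independent replicates, and with 2 TNF-LTBR arrays the deviation of one is the mirror of the other. What sets the arrays apart was not tested.

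Spib transcript was about 6-fold more abundant on the TNF-LTBR arrays than on the control arrays. Its only probe set had an intensity of 547.2 and 686.5 on TNF-LTBR arrays 1 and 2, against 69.1, 95.9 and 105.6 on control arrays 1 to 3. Both TNF-LTBR arrays lay far above every control, and the gap between the lower TNF-LTBR array and the highest control was 2.21 on the log2 scale. All comparisons use log2(intensity + 16), a scale that understates changes of dim genes. On it, Spib averaged 9.30 ± 0.23 in TNF-LTBR cultures (SD, n = 2) and 6.71 ± 0.27 in control cultures (SD, n = 3), a difference of 2.58 or 5.99-fold. The ratio of the mean intensities was 6.84. Leaving out each array in turn gave differences from 2.42 to 2.74, with 2.42 without TNF-LTBR array 2 and 2.74 without TNF-LTBR array 1.

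Among the 10916 genes bright enough to be tested, the Spib difference was the 6th largest upward one, and its gap between groups ranked 2. These ranks describe why Spib was picked, and Spib passed the brightness limit of 7.17 only through its TNF-LTBR arrays, since its control mean was 6.71. Over all tested genes, 0 (0.0%) passed limma at an adjusted p under 0.05, and 192 (1.76%) had an unadjusted p under 0.05. Of tested genes, 6.94% had both TNF-LTBR values above every control and 6.34% had both below every control, 13.3% together. With groups of 2 and 3 arrays, the smallest p of an exact two-sided permutation test is 0.1. RNA from a culture does not separate fewer cells that make a transcript from less transcript per cell.

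**Figure D1:**
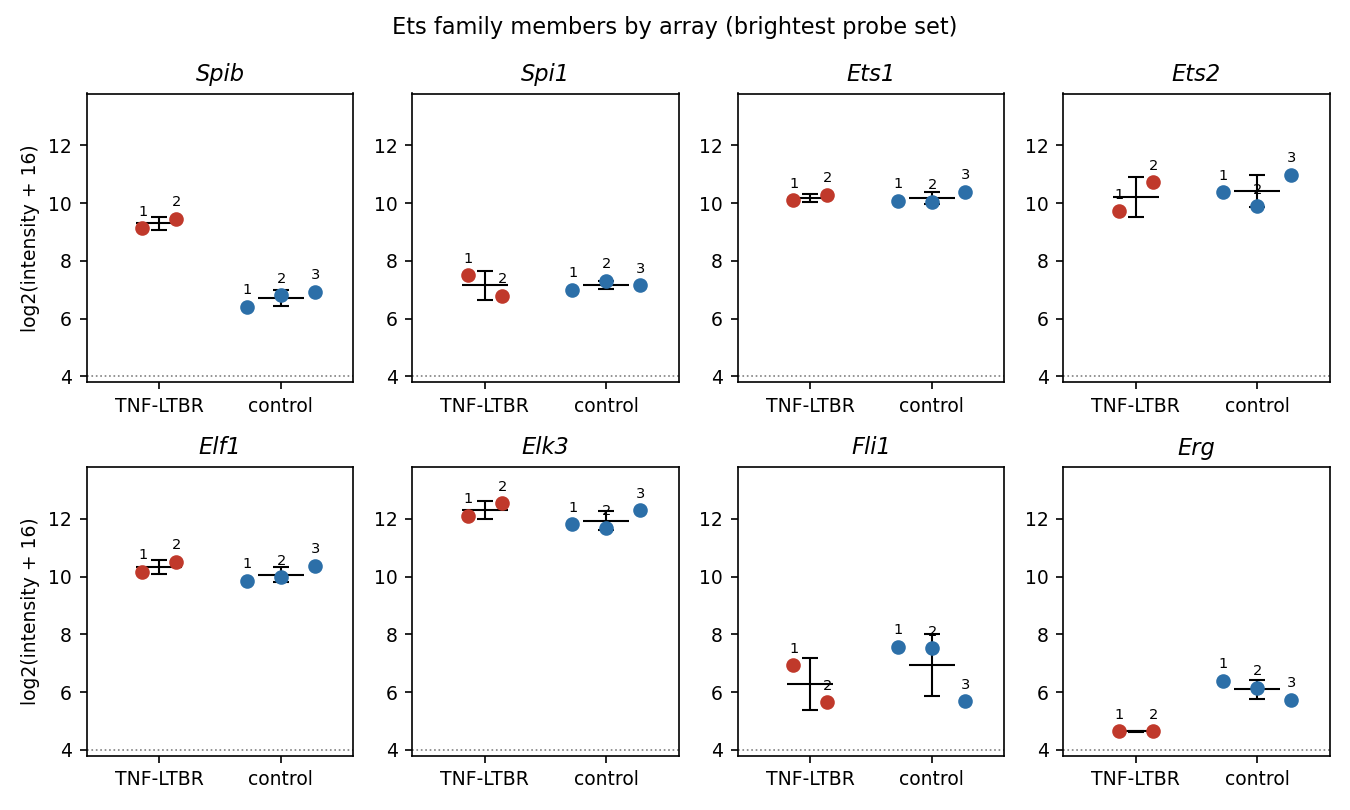
Level of each of the 8 members on each array, as log2(intensity + 16) of its brightest probe set, with TNF-LTBR arrays in red and control arrays in blue, array numbers beside the points, and bars at the mean ± SD (n = 2 and n = 3). The dotted line at 4 is the value of an intensity of 0. Spib lies at 9.30 on average in TNF-LTBR cultures and 6.71 in control cultures, and Erg lies close to the dotted line on both TNF-LTBR arrays.

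PU.1, encoded by Spi1, is the closest relative of Spi-B among the members and directs myeloid and B cell development. Its 1 probe set had an intensity of 165.7 and 95.2 on TNF-LTBR arrays, against 112.7, 142.5 and 127.6 on control arrays. The TNF-LTBR values lay on either side of the controls, and the groups overlapped. Spi1 averaged 7.15 ± 0.50 in TNF-LTBR and 7.16 ± 0.15 in control cultures on the log2 scale, a difference of -0.01 with a 95% interval of -0.79 to 0.77 (limma over every probe set, adjusted p 1.00). Its mean of 7.16 fell just short of the brightness limit of 7.17, so Spi1 was not among the genes tested in the main comparison.

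Genes that PU.1 is known to activate in myeloid cells were read as a list of 13, of which 7 passed the brightness limit. Of these, 1 was higher and 6 were lower in TNF-LTBR cultures, 0 passed limma in either direction, and the median log2 difference was -0.26, against -0.0035 over all tested genes. Csf2ra, at -0.59, was the 1 of these 7 whose groups did not overlap, a share near the 13.3% over all tested genes. Lyz2, the myeloid lysozyme, had an intensity of 3933.6 and 66.5 on TNF-LTBR arrays, against 1088.5, 3409.2 and 186.3 on control arrays. Mpeg1, which encodes the pore-forming protein perforin-2 of macrophages, read 521.9 and 1937.0 in TNF-LTBR and 189.4, 455.9 and 1131.2 in control cultures. For both genes the groups overlapped and the arrays within each group were far apart.

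Ets1, known for roles in lymphocytes and in growing vessels, differed little between the groups on its brightest probe set. Intensities were 1078.2 and 1230.7 on TNF-LTBR arrays, against 1063.9, 1048.8 and 1336.7 on control arrays. The values overlapped, and the log2 difference was 0.01 with a 95% interval of -0.43 to 0.45 (limma adjusted p 0.999). Its sign turned under 4 alternatives, including median centring. The 4 probe sets of Ets1 did not read alike. A dim one had 233.6 and 161.7 in TNF-LTBR, against 106.1, 113.6 and 104.6 in control cultures, so that the groups did not overlap, with a log2 difference of 0.76 and an unadjusted interval of 0.09 to 1.44 (limma adjusted p 1.00). The remaining pair differed by 0.22 and 0.18, both with overlapping groups.

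Ets2, a close relative of Ets1 that is phosphorylated by ERK, varied mainly between arrays of the same group. Its brightest probe set had an intensity of 830.7 and 1669.1 on TNF-LTBR arrays, against 1323.0, 938.0 and 2008.4 on control arrays. TNF-LTBR array 2 and control array 3 were the highest of the 5. The log2 difference was -0.20 with a 95% interval of -1.29 to 0.89 (limma adjusted p 0.999), and it was 0.30 without TNF-LTBR array 1 and 0.08 without control array 3. A dimmer probe set differed by -1.15, and on it TNF-LTBR array 1 read 31.3 while the other 4 arrays lay between 198.5 and 332.7. The dimmest differed by -0.05.

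Elk3 encodes Net, a repressor that binds DNA together with serum response factor, and it was slightly higher in TNF-LTBR cultures without passing the test. Its brightest probe set read 4382.2 and 5952.3 on TNF-LTBR arrays, against 3583.3, 3297.5 and 5060.9 on control arrays. Both TNF-LTBR arrays exceeded controls 1 and 2, and control 3 lay between them. The log2 difference was 0.38, with a 95% interval of -0.23 to 1.00 (limma adjusted p 0.999), and it was 0.16 without TNF-LTBR array 2 and 0.60 without TNF-LTBR array 1. All 4 probe sets of Elk3 had positive differences, from 0.27 to 0.50, and their groups overlapped.

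Elf1, which is known to act on promoters of blood and endothelial genes, read much the same way. Its brighter probe set had 1142.0 and 1445.6 on TNF-LTBR arrays, against 915.3, 992.0 and 1314.7 on control arrays. Control array 3 again lay between the TNF-LTBR arrays. The log2 difference was 0.27 with a 95% interval of -0.28 to 0.82 (limma adjusted p 0.999), from 0.10 without TNF-LTBR array 2 to 0.44 without TNF-LTBR array 1, and the dimmer probe set differed by 0.12.

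The endothelial members Erg and Fli1 fell below the brightness limit by their mean over the 5 arrays. Erg, which holds endothelial cells in their mature state, had an intensity of 9.1 and 8.9 on TNF-LTBR arrays, against 68.2, 54.9 and 37.5 on control arrays, on its brighter probe set. Both TNF-LTBR arrays lay below all controls, as they did for 6.6% of all probe sets with a single symbol. The log2 difference was -1.45, with an unadjusted 95% interval of -2.18 to -0.72 and an adjusted p of 1.00 (limma over every probe set). Its size follows the added constant, since it was -2.41 with 1 and -0.68 with 64 in place of 16. The other Erg probe set read 14.4 and 11.7 in TNF-LTBR, against 9.1, 9.1 and 9.0 in control cultures, the opposite order, for a log2 difference of 0.21. Of all probe sets with a single symbol, 8.73% had both TNF-LTBR values above every control. The 2 probe sets thus disagreed on direction at intensities near the bottom of the scale.

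Fli1, the partner of Erg in endothelial gene control, separated arrays within each group. Its brighter probe set had an intensity of 106.4 and 34.4 on TNF-LTBR arrays, against 175.4, 168.0 and 35.7 on control arrays. TNF-LTBR array 2 and control array 3 were the lowest of the 5. The log2 difference was -0.64 with a 95% interval of -2.40 to 1.13 (0.0034 without TNF-LTBR array 2), and the dimmer probe set differed by 0.68 with an interval of -1.21 to 2.58 (limma over every probe set, adjusted p 1.00 for both). Here too the probe sets had opposite signs, and neither interval excluded a difference in either direction.

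Counted together, the 7 members other than Spib had 18 probe sets, of which 0 passed limma and 2 had an unadjusted p under 0.05, against 2.82% of all probe sets with a single symbol. Their groups overlapped on 15 probe sets, TNF-LTBR lay above all controls on 2 and below on 1. Over all probe sets with a single symbol the groups did not overlap for 15.3%, so the members' count stood near that background. The 4 of the 7 that were tested (Ets1, Ets2, Elf1 and Elk3) had log2 differences from -0.20 to 0.38.

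Another 18 Ets family genes were listed, of which 16 were analysed here and 11 passed the brightness limit. Of these 11, 6 were higher and 5 lower in TNF-LTBR cultures, 0 passed limma, the median log2 difference was 0.04 and the range was -0.27 to 0.22. Etv5, which is induced by ERK signalling downstream of growth factors, read 1460.7 and 1636.8 in TNF-LTBR, against 1927.2, 1701.8 and 1999.2 in control cultures, a log2 difference of -0.27 (95% interval -0.63 to 0.09). Elk1, which like Elk3 binds with serum response factor, read 226.8 and 172.6, against 229.2, 238.2 and 231.2, a difference of -0.22 (95% interval -0.73 to 0.29). Both TNF-LTBR arrays lay below all controls for these 2 genes, and for the other 9 the groups overlapped, so the share of 2 in 11 stood near the 13.3% of all tested genes whose groups did not overlap. Elk4, the third gene of that subfamily, differed by -0.02, and Gabpa, which encodes the DNA-binding subunit of GA-binding protein, by 0.04. The 15 tested family genes other than Spib had differences from -0.27 to 0.38. Family genes below the brightness limit ranged more widely, from -1.45 (Erg) to 0.655.

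**Figure D2:**
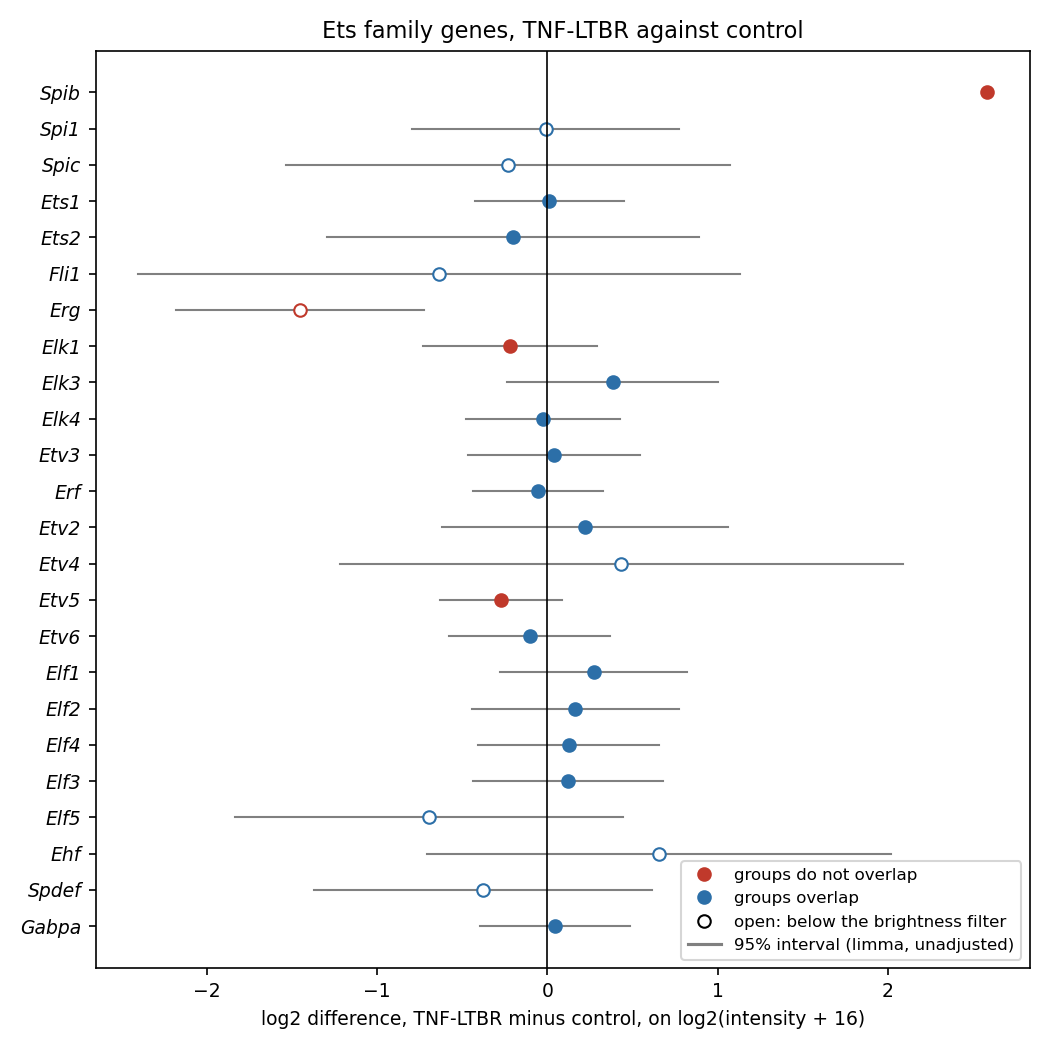
Log2 difference between TNF-LTBR and control arrays, on log2(intensity + 16), for the brightest probe set of each of 24 Ets family genes. Filled points passed the brightness limit and open points did not, red points mark groups that do not overlap, and grey lines are unadjusted 95% limma intervals, not drawn for Spib. Spib stands at 2.58, while the tested genes of the family other than Spib lie between -0.27 and 0.38. The open points spread more widely, from -1.45 (Erg) to 0.655. Spib passed the brightness limit only through its TNF-LTBR arrays.

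Genes known to depend on Spi-B elsewhere, in M cells, plasmacytoid dendritic cells, thymic epithelium or B cells, were read as a list. Of 17 listed, 8 passed the brightness limit, 5 of them higher and 3 lower, 0 passed limma, and the median log2 difference was 0.27. Ccl9, a chemokine made by M cells and macrophages, had an intensity of 7038.5 and 11752.4 in TNF-LTBR, against 1972.1, 3356.0 and 5571.2 in control cultures. It was the 1 tested gene of these 8 whose groups did not overlap, a share near the 13.3% over all tested genes, and it differed by 1.45 on the log2 scale (95% interval 0.23 to 2.66, limma adjusted p 0.999). Tnfaip2, a TNF-induced gene that is needed for membrane protrusions of M cells, read 4963.2 and 535.4 in TNF-LTBR and 870.7, 3125.7 and 250.5 in control cultures. The groups overlapped, with wide spread within each.

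The route that leads to Spib in mouse M cells runs from RANK ligand (Tnfsf11) and its receptor RANK (Tnfrsf11a) to NIK, RelB and p52. Of 11 listed genes 6 were tested, 4 higher and 2 lower, with every TNF-LTBR value above every control value for 4 (6.94% of all tested genes), 0 past limma and a median log2 difference of 0.41. Nfkb2, which encodes the precursor of p52, read 1154.8 and 1201.9 in TNF-LTBR, against 417.7, 321.6 and 251.5 in control cultures. Relb read 335.7 and 400.1, against 284.2, 181.1 and 240.4. Their groups did not overlap, and both had a limma adjusted p of 0.999. The RANK arm itself was dim: Tnfsf11 read 30.6 and 37.6 in TNF-LTBR, against 12.5, 43.3 and 33.2 in control cultures, and Tnfrsf11a read 144.5 and 101.5, against 122.9, 120.2 and 125.1. Neither gene of this arm passed the brightness limit, and the groups overlapped for both.

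The 5 tested genes whose values were most like those of Spib across the 5 arrays were Dclk1, Birc3, Nfkb2, Birc2 and Cxcl16. Likeness was the Euclidean distance between log2 values, each gene centred on its own mean, ranked over 10915 genes. The distance was 1.08 for Dclk1, a microtubule-associated kinase, 1.19 for Birc3 and 1.30 for Birc2, which encode inhibitors of apoptosis, 1.22 for Nfkb2 and 1.31 for the chemokine Cxcl16. Dclk1 had an intensity of 6225.0 and 8730.8 on TNF-LTBR arrays, against 2415.1, 1833.1 and 2310.0 on control arrays, 3.38-fold. Each of the 5 had TNF-LTBR values above every control, as choosing by likeness to Spib favours, and their folds of 2.75 to 3.52 were smaller than that of Spib.

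**Figure D3:**
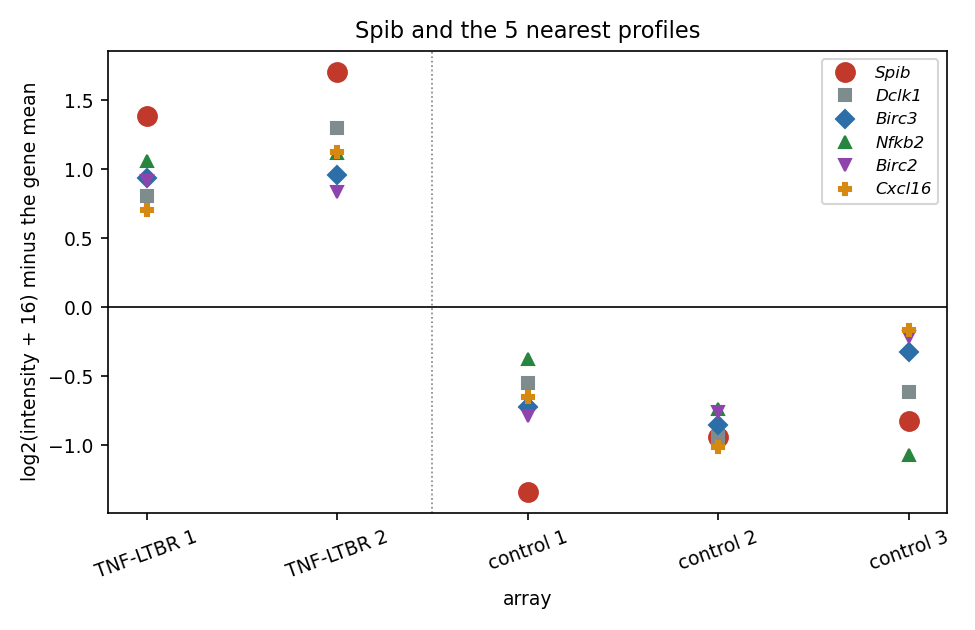
Log2(intensity + 16) of Spib and of the 5 tested genes nearest to it, each minus its own mean over the 5 arrays, with TNF-LTBR arrays left of the dotted line and control arrays right of it. All 6 genes are above their mean on both TNF-LTBR arrays and below it on all 3 controls, with the widest separation for Spib.

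Of the 12 endothelial markers, 8 were, like Fli1, lowest on TNF-LTBR array 2 and control array 3, as were 23.0% of all tested genes, and the other 4 (Tek, Plvap, Icam2 and Egfl7) were not. The 8 include genes below the brightness limit, while the 23.0% covers only genes above it. Among them are Vwf, which read 7.2 at most, and Tie1, which read 5.2 on TNF-LTBR array 2 and 5.4 on control array 2. Pecam1, an adhesion molecule of endothelial junctions, had an intensity of 120.8 and 52.6 on TNF-LTBR arrays, against 198.9, 161.3 and 56.0 on control arrays. Cdh5, the endothelial cadherin, read 135.1 and 28.7, against 235.6, 123.2 and 55.3, and Esam, a junctional adhesion molecule, 231.0 and 81.9, against 309.3, 229.5 and 97.0. On their brightest probe sets, Ets1, Ets2, Elf1 and Elk3 had their highest values on TNF-LTBR array 2 and control array 3, as did 25.5% of all tested genes. Some of their dimmer probe sets had another order. On one of Ets1, TNF-LTBR array 1 read 1129.9 and array 2 read 1043.2. Plvap, an endothelial gene of fenestrated vessels, read 469.8 and 759.3, against 460.9, 401.3 and 452.1. The part of these markers in the Erg and Fli1 values was not tested.

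**Figure D4:**
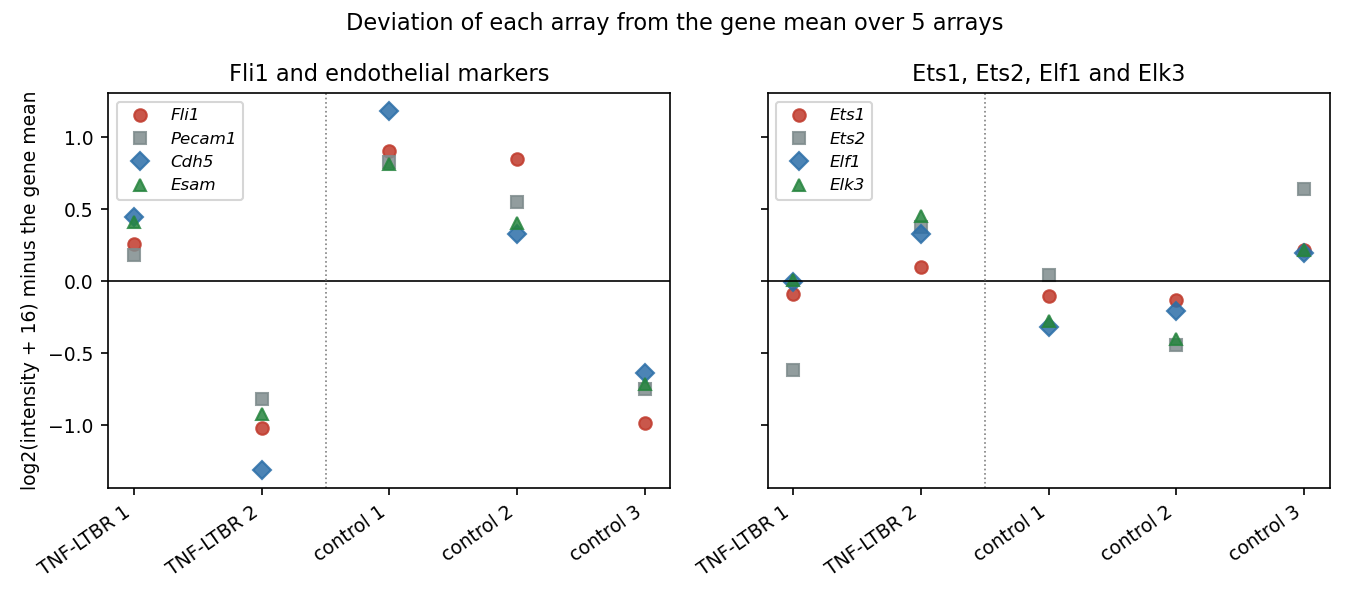
Deviation of each array from the gene's mean over the 5 arrays, on log2(intensity + 16) of the brightest probe set. Fli1 with 3 endothelial markers is on the left and Ets1, Ets2, Elf1 and Elk3 are on the right, with TNF-LTBR arrays left of the dotted line. Fli1, Pecam1, Cdh5 and Esam are below their mean on TNF-LTBR array 2 and control array 3, where Ets1, Ets2, Elf1 and Elk3 are above theirs.

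Genes known to depend on Erg, Fli1 or Ets1 in endothelium were read as another list. Of 16 listed, 6 were tested, with 3 higher, 3 lower, 0 past limma and a median log2 difference of 0.01. Apln, a peptide ligand made at vessel tips, read 1331.1 and 1198.6 in TNF-LTBR, against 628.0, 1016.2 and 840.3 in control cultures, without overlap and with a difference of 0.63 (95% interval 0.03 to 1.22, limma adjusted p 0.999). Apln was the 1 gene of these 6 whose groups did not overlap, against 13.3% of all tested genes. Flt1, a receptor of vascular endothelial growth factor, differed by 0.13 with overlapping groups.

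Markers of B cells and plasmacytoid dendritic cells, cell types known for Spib, were also read, with those of macrophages beside them. Of 10 B cell markers, 9 were analysed here and 2 passed the brightness limit, and the summed intensity of the 9 was 1170 and 1113 on TNF-LTBR arrays, against 1083, 1127 and 1059 on control arrays. Pax5, the B cell identity factor, differed by 0.12 and Ighm, the immunoglobulin heavy chain gene, by 0.11 on the log2 scale. Ptprc, the pan-leukocyte marker CD45, read 75.2 and 21.8 in TNF-LTBR, against 72.5, 66.5 and 12.3 in control cultures. The groups overlapped for these 3 genes and for the B cell sums.

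Of 8 markers of plasmacytoid dendritic cells, 5 passed the limit, and the summed intensity was 5444 and 13302 on TNF-LTBR arrays, against 6660, 5744 and 11085 on control arrays. Bst2, which encodes an interferon-induced membrane protein also made outside these cells, read 1546.0 and 6862.5, against 2914.8, 653.1 and 4029.0. Tcf4 read 3159.9 and 4908.2, against 3214.6, 4245.7 and 6048.3. Bst2 and Tcf4 together made up most of each sum. Ly6d, a surface marker of lymphoid progenitors, read 139.1 and 1049.1, against 193.4, 340.4 and 425.7, so that the TNF-LTBR arrays lay on either side of the controls. For macrophages, 7 of 11 markers passed, with sums of 9560 and 2793 on TNF-LTBR arrays, against 4324, 8306 and 2336 on control arrays. Of the 7 tested macrophage markers, 2 were higher and 5 lower in TNF-LTBR cultures, with a median log2 difference of -0.13. Cd53, a leukocyte tetraspanin, was among those higher and differed by 0.57. No marker of these 3 lists was at an intensity of 0, but the lowest value of any probe set was 0.1 on every array. Values above 0 therefore do not show that a marker was expressed, and some markers read near the bottom of the scale. The groups overlapped on all 3 sums, and their part in the Spib values was not tested.

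Factors that pair with Ets proteins on DNA were a list of 13, of which 9 were tested, with 3 higher and 6 lower, 0 past limma and a median log2 difference of -0.14. Jun, the AP-1 subunit that binds composite sites with Ets1 and Ets2, had an intensity of 2378.3 and 1272.0 in TNF-LTBR, against 1134.4, 1093.6 and 918.7 in control cultures. The groups did not overlap, for a difference of 0.73 (95% interval -0.02 to 1.47, limma adjusted p 0.999). Fos, its AP-1 partner, read 310.3 and 139.8, against 288.9, 571.5 and 233.3, a difference of -0.65 with overlapping groups. Srf, which encodes serum response factor, and Gabpb1, which encodes the partner subunit of Gabpa, lay below all controls on both TNF-LTBR arrays. Their differences were -0.42 and -0.29 (limma adjusted p 0.999 for both). Of the 9 tested partners, 1 thus lay above all controls and 2 below, against 6.94% and 6.34% of all tested genes.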

How the data were processed

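The members and lists were chosen with earlier results of these data known. The authors deposited linear intensities, with a single value for each probe set on an array. Per the submitters' processing notes, GCOS version 1.4 was used. The sources used here name neither the summarisation algorithm nor a genome build. Without the lowest and highest 2% of the 45101 probe sets, mean intensity was 500.0 on every array, and array medians were 109.9 to 120.7, so values were used as deposited. A single symbol was annotated for 34958 probe sets, several for 932 and none for 9211.

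For each gene the brightest probe set, by its mean log2(intensity + 16) over the 5 arrays, was used. The brightest 60% of 18194 genes were tested, 10916 genes with a mean of at least 7.17, an intensity of 128. The groups were compared, two-sided, in R 4.3.3 with limma 3.58.1 (eBayes with an intensity trend), adjusting p-values by Benjamini-Hochberg across the 10916 genes. The fit had 3 residual degrees of freedom. On simulated data with noise independent between genes, it was checked only for recovering the size of differences that had been added. Intervals of single genes are not adjusted for the number of genes. Members below the limit, and dimmer probe sets, took their intervals from a fit over every probe set, an alternative added after seeing the data. The number of arrays limits the precision.

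The text names the 8 members, other Ets genes without overlap between groups and the 2 brightest, the 5 genes nearest to Spib, and, from each list with none past the threshold, the 2 tested genes with the largest difference. Relb, Nfkb2, Tnfrsf11a, Tnfsf11, Pecam1, Cdh5 and Ptprc were named whatever their result. Kdr, Emcn, Vwf, Tie1, Tek, Icam2, Egfl7, Srf, Gabpb1, Egr1, Tcf4 and Csf2ra were named after their values were seen. Some listed genes were not analysed here.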

Additional observations from a re-analysis of the deposited data

How the results depend on the processing

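The Spib difference ran from 2.42 to 2.74 when each array was left out in turn. Under the rest of the 16 alternatives it ran from 2.14 with an added constant of 64 to 2.77 with a constant of 1. Spib was chosen for its separation between the groups, so leaving out an array could not turn its sign. Its values under the alternatives are a description and carry no test. No gene was called under any of the 16, with 113 to 985 genes or probe sets at an unadjusted p under 0.05. Elf1 and Elk3 kept a positive difference and Erg a negative one throughout. Ets1 turned to -0.0098 with median centring, to -0.04 without control replicate 1, to -0.05 without control replicate 2 and to -0.083 without TNF-LTBR replicate 2, with 0.12 as its highest without 1 array. Ets2 turned to 0.080 with the replicate block and without control replicate 3, and to 0.30 without TNF-LTBR replicate 1, and its lowest was -0.70 without TNF-LTBR replicate 2. Spi1 turned to 0.0001 with the constant of 64, to 0.06 without control replicate 2 and to 0.34 without TNF-LTBR replicate 2, and its lowest was -0.36 without TNF-LTBR replicate 1. Fli1 turned to 0.0034 without TNF-LTBR replicate 2 and was -1.28 without TNF-LTBR replicate 1. The causes were not tested. Deviations of arrays with the same replicate number correlated at 0.13 for number 1 and -0.80 for number 2. With 2 TNF-LTBR arrays the deviation of one mirrors the other, so these values cannot tell whether the numbers pair the arrays. The labels do not say what the numbers mark. With the replicate block, which drops control array 3 from the comparison, Spib differed by 2.69 and 0 genes were called.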

Other observations

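Genes that are known to report ERK and AP-1 activity, which Ets factors share in controlling, were also read as lists. Feedback inhibitors of ERK signalling had 8 of 8 members above the brightness limit, 4 higher and 4 lower in TNF-LTBR cultures, with 0 past limma and a median log2 difference of -0.04. Spry4, a Sprouty inhibitor, had an intensity of 391.6 and 329.5 in TNF-LTBR, against 502.7, 577.5 and 429.7 in control cultures, below all controls on both arrays (difference -0.46, 95% interval -0.95 to 0.03). It was the 1 of these 8 whose groups did not overlap, a share near the 13.3% over all tested genes. Spry2 differed by -0.31 with overlapping groups. Of 14 genes induced through Ets with AP-1 or with serum response factor, 10 were tested, 5 higher and 5 lower, with 0 past limma and a median of 0.06. Junb, an AP-1 subunit, read 904.0 and 532.7, against 331.7, 683.8 and 311.7, a difference of 0.72 with overlapping groups. Egr1, an immediate early factor, and Srf, which encodes serum response factor, lay below all controls on both TNF-LTBR arrays. Their differences were -0.54 and -0.42 (limma adjusted p 0.999 for both). They were 2 of the 10 tested, and 6.34% of all tested genes lay below all controls.

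Among epithelial markers, read because Spib is made in M cells and thymic epithelium, 3 of 7 were tested, and their groups overlapped. The keratin gene Krt8 differed by 0.47 (95% interval -0.73 to 1.66) and Krt18 by -0.13. Of 7 tested smooth muscle markers, 2 were higher and 5 lower in TNF-LTBR cultures, with 0 past limma and a median log2 difference of -0.50. Of 10 tested fibroblast and pericyte markers, 6 were higher and 4 lower, with 0 past limma and a median of 0.10. Those named below had the largest differences of their list in either direction. Some smooth muscle and fibroblast markers differed widely between arrays of the same group. Tagln, a smooth muscle actin-binding protein gene, read 1315.1 and 19.4 in TNF-LTBR and 3307.9, 2335.1 and 72.1 in control cultures, and Lmod1, which encodes an actin nucleator of smooth muscle, differed by -0.80. Rgs5, a pericyte regulator of G protein signalling, read 13874.5 and 8192.9, against 1086.4, 9401.5 and 1006.5, and the matrix proteoglycan gene Dcn differed by 1.44 with overlapping groups.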
